A study of Mus musculus with 12 samples.

Results

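The WNT genes described here are 48 of the 53801 gene rows counted in cells sorted from mouse skin tumors. They were chosen by name: 19 WNT ligands, 10 Frizzled receptors, the co-receptors Lrp5 and Lrp6, the R-spondin receptors Lgr4, Lgr5 and Lgr6, 4 R-spondins, 9 secreted antagonists (Dkk1 to Dkk4, Sfrp1, Sfrp2, Sfrp4, Sfrp5 and Sostdc1), and Axin2. All 12 libraries came from cutaneous squamous cell carcinomas of FVB mice, and formed 4 groups of 3. Basal carcinoma cells, which carried a Rosa-YFP lineage mark and the integrins CD49f and CD29, were split by an mScarlet reporter of TGF-beta signalling into reporter-positive and reporter-negative cells. Tumor macrophages, sorted as CD45+ F4/80+, were split into FceRIa-positive and FceRIa-negative cells by the surface IgE receptor chain FceRIa. The sources used here do not state the promoter that switched on the YFP mark, how the tumors arose, the age of the mice or whether a library pooled animals. Nothing says that replicates came from separate mice, so the p-values measure only the spread between these libraries.

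WNT proteins are secreted, lipid-modified ligands that bind a Frizzled receptor together with LRP5 or LRP6. In the canonical branch this stops the destruction of beta-catenin, which then works with TCF and LEF factors on target genes such as Axin2, while other branches act on cell polarity and movement without beta-catenin. R-spondins acting through LGR receptors raise the number of Frizzled receptors at the surface, DKK1-type antagonists block the LRP co-receptors, and SFRP proteins bind WNT ligands outside the cell. In skin the pathway is best known for hair follicle formation, for the upkeep of basal cells and for its activity in skin tumors.

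The unit of level is CPM, a gene's count set to a common library size by the normalized total of its library. Total counts were 27951632 to 35088897 in the carcinoma libraries and 33704786 to 40041144 in the macrophage libraries, so a count of 0 allows a level of up to 0.107 and 0.0890 CPM, a limit of 3 counts that covers counting error only. Within each carcinoma group, replicates 1 and 3 were close to each other (chi-square per degree of freedom 1.65 among positive and 3.13 among negative libraries), while replicate 2 stood apart from both (46.8 to 98.9). The labels do not say whether replicates 1 and 3 are repeats of one tumor, in which case 2 independent pairs and not 3 stand behind the paired p-values. Basal keratinocyte markers summed to between 64245 and 75434 CPM in the carcinoma libraries, where 10 macrophage markers summed to between 19.2 and 94.5 CPM and were highest in replicate 2 of both groups. In the macrophage libraries the macrophage markers summed to between 15598 and 31871 CPM, and the keratins Krt5 and Krt14 stood at 54.0 to 714 and 97.2 to 1706 CPM. Because these are bulk samples, fewer cells of a type and less RNA per cell cannot be told apart.

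The sequences just upstream of 5 of the genes are shown because Wnt3, Wnt16 and Lgr4 passed a test as lower and Fzd7 as higher in reporter-positive carcinoma cells, while Axin2 is the usual target by which the canonical pathway is read. Each is the 250 bases before the RefSeq start on the plus strand of GRCm38.p6, 5′ to 3′. The windows are chr11:103773925-103774174 (Wnt3), chr6:22287977-22288226 (Wnt16), chr2:109917397-109917646 (Lgr4), chr11:108920099-108920348 (Axin2) and chr1:59481897-59482146 (Fzd7). The end of the Wnt3 window lies past the GENCODE start of the gene at 103774150. The Fzd7 window ends short of the GENCODE start of that gene at 59482424. Capitals mark a match, on either strand, to CTTTG followed by 2 bases that are each an adenine or a thymine, the core of the motif bound by TCF and LEF factors.
Wnt3: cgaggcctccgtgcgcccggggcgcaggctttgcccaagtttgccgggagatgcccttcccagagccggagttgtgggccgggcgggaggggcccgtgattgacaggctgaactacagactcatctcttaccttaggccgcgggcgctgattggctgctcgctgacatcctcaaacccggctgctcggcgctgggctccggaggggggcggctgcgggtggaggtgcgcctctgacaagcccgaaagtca
Wnt16: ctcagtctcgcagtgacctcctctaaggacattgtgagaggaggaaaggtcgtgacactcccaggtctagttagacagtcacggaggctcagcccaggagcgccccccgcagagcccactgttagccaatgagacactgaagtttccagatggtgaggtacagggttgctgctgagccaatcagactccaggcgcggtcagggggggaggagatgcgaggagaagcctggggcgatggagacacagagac
Lgr4: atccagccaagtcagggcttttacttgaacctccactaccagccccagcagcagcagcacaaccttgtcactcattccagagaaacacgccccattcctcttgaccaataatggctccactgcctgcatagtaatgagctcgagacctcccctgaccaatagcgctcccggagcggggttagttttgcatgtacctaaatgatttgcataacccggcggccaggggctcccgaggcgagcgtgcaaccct
Axin2: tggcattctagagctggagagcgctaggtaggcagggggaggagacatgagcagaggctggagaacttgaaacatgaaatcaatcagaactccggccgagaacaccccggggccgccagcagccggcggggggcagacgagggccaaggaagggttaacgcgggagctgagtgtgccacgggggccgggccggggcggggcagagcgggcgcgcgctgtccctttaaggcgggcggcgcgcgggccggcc
Fzd7: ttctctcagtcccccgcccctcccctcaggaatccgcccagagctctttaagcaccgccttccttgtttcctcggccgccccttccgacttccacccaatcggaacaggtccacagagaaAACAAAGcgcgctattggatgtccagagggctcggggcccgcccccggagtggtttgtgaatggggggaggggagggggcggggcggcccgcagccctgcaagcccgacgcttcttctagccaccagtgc

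Among these 5 windows the motif was present in that of Fzd7, 130 bases before the RefSeq start. Of the 48 genes, 30 had a RefSeq window, 33 windows in all. The motif was in 4 of the 33 (12.1%, those of Dkk1 and Fzd7 and 1 each of those of Wnt5b and Wnt11), against 14.8% of the 32851 windows of all genes. The palindromic SMAD motif GTCTAGAC and a separate SMAD motif, spelled CAGACA, were searched on both strands. Their matches share no letters with the first motif in these windows. At least 1 of them was in 2 of the 33 (6.06%, Sfrp2 and Wnt7a), against 17.3% of all windows. A match describes letters in a window, not a site, and its absence says nothing of the factors.

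Carcinoma cells expressed a wide set of the genes. In these cells 29 of the 48 averaged at least 1 CPM and 17 at least 10 CPM. The R-spondins were at or near 0, and 6 genes (Dkk1, Dkk4, Rspo2, Rspo4, Wnt1 and Wnt8b) had no count in any of the 6 carcinoma libraries. Per length of transcript, Wnt10a stood highest at 74.0 ± 13.3 CPM per kb, with Wnt4 at 68.1 ± 14.1 (SD, n = 6 libraries). Wnt10a, a ligand of hair, tooth and other skin appendages, and Wnt4, which is widely expressed in epidermis, did not differ from each other beyond that spread. Wnt5a, the main ligand of the branches that do not use beta-catenin, followed at 26.9 ± 3.36 CPM per kb, and its range overlapped that of Dkk3 at 22.1 ± 2.94. Wnt3a at 18.5 ± 2.90, Fzd10 at 15.2 ± 2.77, Lrp5 at 14.5 ± 1.09 and Sostdc1 at 11.8 ± 7.31 CPM per kb came next, and from Wnt5a to Sostdc1 the ranges of neighbours in this order overlapped over the 6 libraries. Wnt4, Wnt5a and Wnt10a together made up 83.1% to 86.0% of the summed CPM of the 19 ligands in every carcinoma library.

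**Figure D1:**
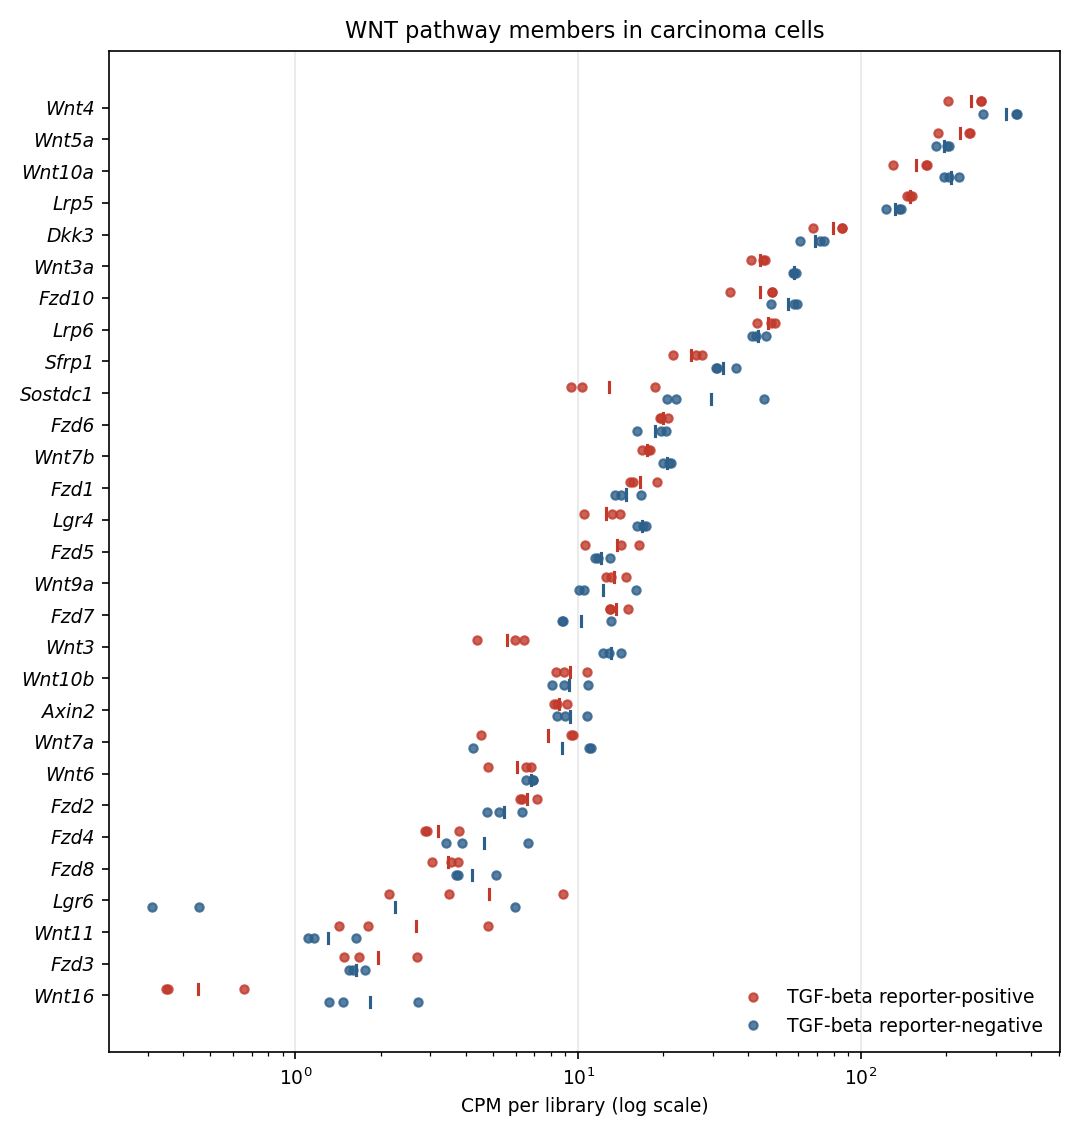
Level of each of the 29 genes that averaged at least 1 CPM in carcinoma cells, on a log axis in CPM not corrected for length, with 1 point per library (red above, TGF-beta reporter-positive; blue below, reporter-negative) and a bar at each group's mean. The red and blue points of Wnt3 and Wnt16 lie well apart (Wnt3 4.40 to 6.43 against 12.2 to 14.2 CPM), while those of Axin2, Wnt10b and Fzd6 are interleaved.

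The first comparison was between carcinoma cells with and without signal of the TGF-beta reporter. WNT ligands were lower or not called in the reporter-positive cells: Wnt3 fell to 5.60 ± 1.07 CPM, against 13.1 ± 1.03 CPM in reporter-negative cells, and Wnt16, Wnt4, Wnt3a and Wnt10a also fell once libraries of the same number were paired. The antagonist Sostdc1, the receptor Lgr4 and the Frizzled Fzd10 fell with them in the paired fit, whereas Fzd7 and Dkk3 rose by small amounts. Axin2 did not pass in either fit. In the same paired fit 3 of 6 suprabasal keratinocyte markers (Ivl, Sbsn and Krt1) were called higher, the 6 summing to 844, 1993 and 812 CPM in positive and 672, 1024 and 726 CPM in negative libraries. Of the 10 macrophage markers 3 (Csf1r, Lyz2 and Mrc1) were called higher, at sums of 25.8 to 94.5 CPM in positive and 19.2 to 67.6 CPM in negative libraries. Their part in the WNT results was not tested.

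Of the 48 genes, 32 had enough counts to be tested. Unpaired edgeR called 1 of them lower (Wnt3) and 0 higher, while it called 0.809% of all 13604 tested genes in either direction (0.235% lower, 0.573% higher). At an unadjusted p under 0.05 there were 10 of the 32, against 19.4% of all genes. Paired edgeR called 8 lower and 2 higher, and 18.0% of all genes in either direction (7.34% lower, 10.7% higher). Unpaired DESeq2 called 5 lower and 0 higher (8.51% of all genes), and paired DESeq2 9 lower and 0 higher (12.4% of all genes). In both DESeq2 fits Fzd9, Sfrp2 and Wnt5b had no adjusted p. The median log2 difference of the 32, reporter-positive minus reporter-negative, was -0.13 unpaired and -0.11 paired, beside 0.00 over all genes. In 9 of the 32 the positive libraries all lay below the negative ones and in 1 (Lrp5) all above, against 13.6% and 14.6% of all genes. With replicates 1 and 3 of each group summed, the unpaired fit called 0 and the paired fit 6, all lower: Sostdc1, Wnt3, Wnt16, Wnt3a, Wnt4 and Wnt10a. Those 6 and Fzd10 also stayed called in the paired fit without each pair. Without pair 2 only the close replicates 1 and 3 were left, and that fit called 20 genes, so passing it says little. The share of all genes called was not tallied for the summed fits or the fits without a pair. Their counts therefore cannot be read against a background.

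Among the ligands, 13 of 19 were tested, with a median log2 difference of -0.24. The paired fit called 5 lower and 0 higher, beside 7.34% and 10.7% of all genes. Wnt3 (ENSMUSG00000000125, chromosome 11, 103774150 to 103817957, GRCm38) encodes a canonical ligand. Its level was 5.98, 4.40 and 6.43 CPM in reporter-positive replicates 1, 2 and 3, against 14.2, 12.8 and 12.2 CPM in reporter-negative replicates 1, 2 and 3. The groups did not overlap, and every positive library held less than the lowest negative one. Its log2 difference was -1.23 ± 0.16 (SE) without pairing (edgeR, Benjamini-Hochberg adjusted p = 0.0475) and -1.23 ± 0.13 with pairing (adjusted p = 0.0058). Without 1 library the unpaired call held only where positive replicate 2 was left out, and the adjusted p was otherwise 0.0973 to 0.259. The paired call held without each pair, though without pair 2 only the close replicates 1 and 3 were left.

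Wnt16, a ligand of low level here, had 0.348, 0.656 and 0.355 CPM in the positive libraries, against 1.31, 2.72 and 1.47 CPM in the negative libraries. In counts these were 11, 20 and 10 reads, against 46, 83 and 52. Replicate 2 was the highest of each group, and the groups did not overlap. The log2 difference was -2.0 ± 0.22 in the paired fit (edgeR adjusted p = 0.00624) and -2.0 ± 0.41 in the unpaired fit (adjusted p = 0.0828).

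The 3 ligands of highest CPM did not move together. Wnt4 had 265, 203 and 266 CPM in the positive libraries, against 355, 271 and 354 CPM in the negative libraries. Wnt10a had 171, 130 and 170 CPM, against 223, 205 and 197 CPM. For both genes all positive libraries were below all negative ones, and replicate 2 of the positive group was the lowest of all 6 libraries. The paired log2 differences were -0.42 ± 0.05 for Wnt4 (edgeR adjusted p = 0.00624; unpaired 0.203) and -0.42 ± 0.09 for Wnt10a (adjusted p = 0.0248; unpaired 0.139). Wnt5a instead had 243, 187 and 242 CPM in positive libraries, against 204, 184 and 201 CPM in negative ones, with overlapping groups. Its log2 difference was 0.18 ± 0.06 paired (edgeR adjusted p = 0.0938) and 0.19 ± 0.12 unpaired (adjusted p = 0.431).

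Wnt3a, the close relative of Wnt3 and the ligand most used to switch on beta-catenin in culture, had 45.9, 40.7 and 45.1 CPM in positive libraries and 58.8, 57.6 and 58.0 CPM in negative libraries. The negative libraries lay within a narrow band above all positive ones. Its log2 difference was -0.41 ± 0.05 in the paired fit (edgeR adjusted p = 0.00919), and the unpaired fit missed the threshold (-0.40 ± 0.06, adjusted p = 0.0566). Wnt7b had 18.0, 17.6 and 16.8 CPM in positive libraries and 19.9, 20.9 and 21.2 CPM in negative libraries. These groups did not overlap either, but neither edgeR fit called the gene (adjusted p = 0.0614 paired and 0.143 unpaired).

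Of the other tested ligands none was called by edgeR in either fit. Wnt11, a ligand of the polarity branch, had 1.42, 4.79 and 1.81 CPM in positive libraries and 1.11, 1.64 and 1.16 CPM in negative libraries. Replicate 2 of the positive group stood far above the rest (log2 difference 0.91 ± 0.27 paired, edgeR adjusted p = 0.0619). Wnt7a followed the replicate rather than the reporter: replicate 2 was low in both groups, at 4.53 CPM in positive and 4.25 CPM in negative cells, against 9.42 to 9.56 CPM and 10.9 to 11.1 CPM in replicates 1 and 3. Wnt9a had 13.1, 14.7 and 12.5 CPM in positive and 10.1, 16 and 10.5 CPM in negative libraries. Wnt10b had 8.89, 8.36 and 10.7 CPM in positive and 8.05, 10.8 and 8.93 CPM in negative libraries. Wnt6, which lies next to Wnt10a on chromosome 1 with 6193 bases between them, had 6.83, 4.79 and 6.54 CPM in positive and 6.94, 6.91 and 6.55 CPM in negative libraries. Thus Wnt10a fell in the paired fit while its neighbour was not called (Wnt6 -0.18 ± 0.14, edgeR adjusted p = 0.411 paired). The difference between the neighbours was not tested. Wnt3 and Wnt3a also have a WNT gene beside them, Wnt9b at 24328 bases and Wnt9a at 16175 bases. Wnt9b stayed at or below 0.190 CPM in every carcinoma library, and Wnt5b, the last ligand tested, ran from 0.107 to 0.722 CPM in positive and from 0.524 to 0.711 CPM in negative libraries.

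**Figure D2:**
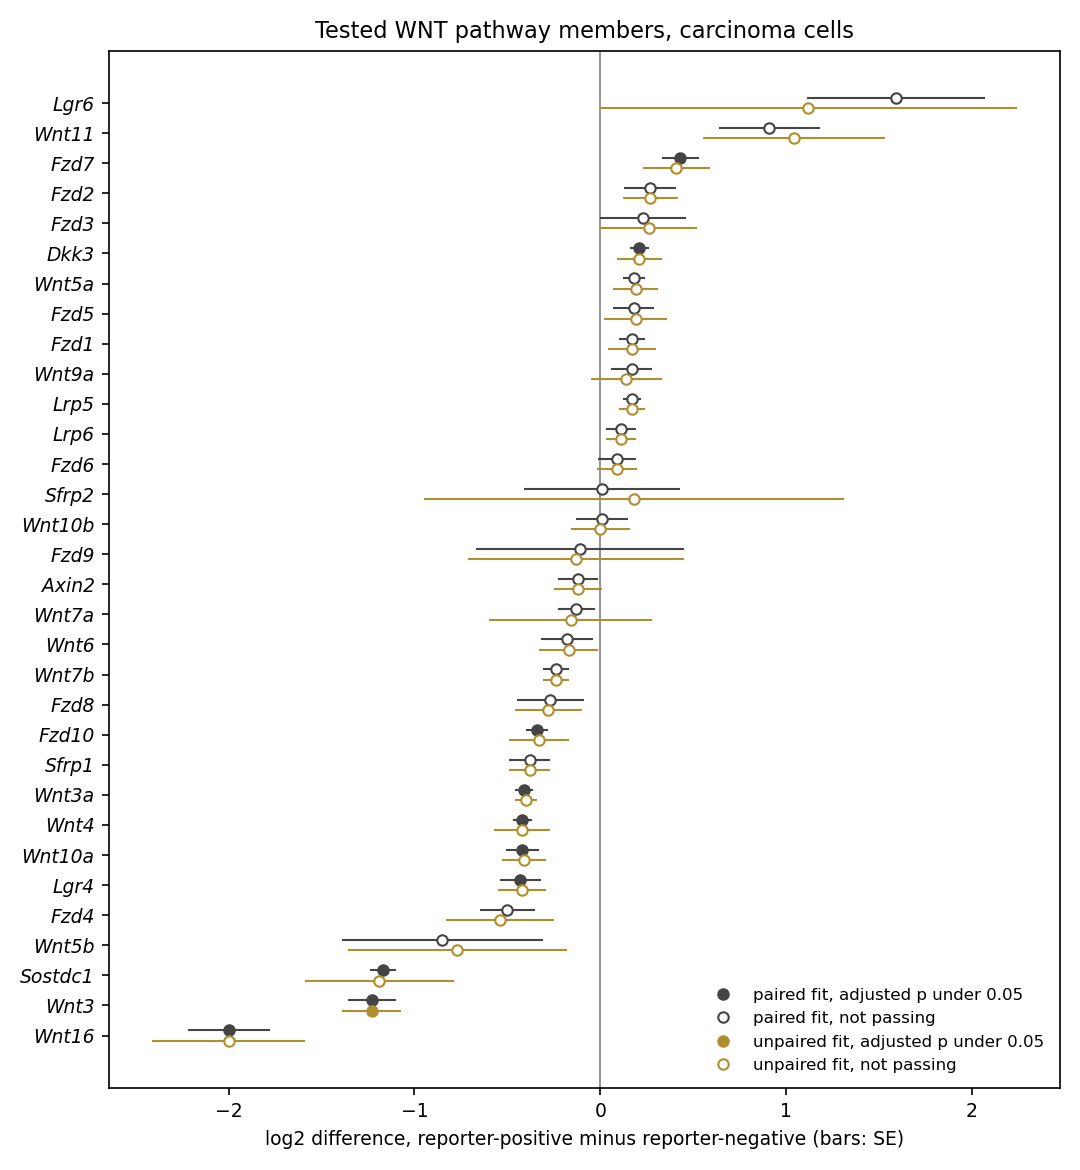
Log2 difference (reporter-positive minus reporter-negative carcinoma cells, bars 1 SE) of the 32 tested genes in the paired fit (black) and the unpaired fit (ochre); filled points had an adjusted p under 0.05 in edgeR. In the paired fit 8 filled points lie left of 0 and 2 (Fzd7, Dkk3) right of it, and in the unpaired fit Wnt3 alone is filled.

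Of the 10 Frizzled receptors, all tested, the paired fit called 1 higher and 1 lower, beside 10.7% and 7.34% of all genes. The summed Frizzled level was 125, 114 and 129 CPM in positive and 128, 130 and 123 CPM in negative libraries. Fzd7, a receptor linked to stem and progenitor cells in several epithelia, had 12.9, 15.0 and 13 CPM in positive and 8.85, 13.1 and 8.76 CPM in negative libraries. Negative replicate 2 lay above positive replicates 1 and 3, so the groups overlapped, though each positive library was above the negative one of its number. The log2 difference was 0.43 ± 0.10 (paired edgeR adjusted p = 0.0378; unpaired 0.285; paired DESeq2 0.0612). Without pair 1 or pair 3 the paired fit no longer called it (highest adjusted p = 0.163).

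Fzd10, the Frizzled of highest level per length in these cells, had 48.6, 34.4 and 48.4 CPM in positive and 59.6, 48.0 and 58.0 CPM in negative libraries. Within each number the positive library was lower, but negative replicate 2 lay below positive replicates 1 and 3. Its log2 difference was -0.34 ± 0.06 (paired edgeR adjusted p = 0.0176, unpaired 0.308). With replicates 1 and 3 of each group summed, Fzd10 was not called. The other Frizzled genes were not called by edgeR. Fzd6, which acts in skin hair orientation, had 19.6, 19.4 and 20.7 CPM in positive and 19.7, 20.4 and 16.1 CPM in negative libraries. Fzd1 had 15.2, 19.0 and 15.6 CPM in positive and 14.2, 16.7 and 13.5 CPM in negative libraries. Fzd5 had 14.2, 10.6 and 16.4 CPM in positive and 11.5, 11.7 and 12.9 CPM in negative libraries. In all 3 the groups overlapped. Fzd2 had 6.32, 6.23 and 7.14 CPM in positive and 5.26, 6.35 and 4.76 CPM in negative libraries. Fzd4 had 2.91, 3.80 and 2.88 CPM in positive and 3.41, 6.64 and 3.89 CPM in negative libraries. Of these receptors Fzd4 came nearest to the threshold (-0.50 ± 0.15 on the log2 scale, edgeR adjusted p = 0.0706 paired). Fzd8 ran from 3.05 to 3.76 CPM in positive and from 3.70 to 5.11 CPM in negative libraries, and Fzd3 from 1.49 to 2.69 CPM and from 1.54 to 1.76 CPM. Fzd9 stayed below 1 CPM.

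Neither co-receptor was called by edgeR. Lrp5 had 149, 152 and 146 CPM in positive and 136, 138 and 123 CPM in negative libraries, without overlap. Its log2 difference of 0.17 missed the threshold in both fits (edgeR adjusted p = 0.0602 paired and 0.227 unpaired). Lrp6 had 47.9, 42.8 and 49.5 CPM in positive and 42.5, 46.0 and 41.2 CPM in negative libraries, with overlap (adjusted p = 0.376 paired).

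Among the R-spondin receptors, Lgr4 had 13.2, 10.5 and 14.0 CPM in positive and 17.4, 16.9 and 16.1 CPM in negative libraries. The groups did not overlap, and the log2 difference was -0.43 ± 0.11 (paired edgeR adjusted p = 0.0419; unpaired 0.146). Without pair 1 the paired adjusted p was 0.0678. Lgr6, a marker of stem cells of the upper hair follicle, had 2.15, 8.82 and 3.48 CPM in positive and 0.455, 5.96 and 0.312 CPM in negative libraries. Replicate 2 was the highest of each group, and each positive library exceeded the negative one of its number. The log2 difference was 1.59 ± 0.48 paired (edgeR adjusted p = 0.0663) and 1.12 ± 1.12 unpaired (adjusted p = 0.657). Lgr5, the hair bulge and intestinal stem cell marker, did not exceed 0.0984 CPM, and the 4 R-spondins did not exceed 0.0854 CPM in any carcinoma library.

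Of the 9 secreted antagonists 4 were tested. Sostdc1, an inhibitor of BMP and WNT signalling that binds LRP co-receptors, had 10.3, 18.7 and 9.45 CPM in positive and 22.1, 45.4 and 20.6 CPM in negative libraries. Replicate 2 was the highest of each group, and all positive libraries lay below all negative ones. With pairing its log2 difference was -1.17 ± 0.07 (edgeR adjusted p = 0.00208), while the unpaired fit did not call it (adjusted p = 0.178). Dkk3, a divergent Dickkopf protein, had 86.0, 67.5 and 85.4 CPM in positive and 73.8, 61.0 and 71.9 CPM in negative libraries. Positive replicate 2 lay below 2 negative libraries. The difference was 0.21 ± 0.05 on the log2 scale (paired edgeR adjusted p = 0.0362; unpaired 0.414; paired DESeq2 0.127), and without pair 1 or pair 3 it was not called (highest adjusted p = 0.251). Sfrp1 had 27.3, 21.7 and 26.1 CPM in positive and 31.0, 36.1 and 30.7 CPM in negative libraries. Its groups did not overlap, and edgeR did not call it (-0.38, adjusted p = 0.0665 paired and 0.145 unpaired), whereas paired DESeq2 did (adjusted p = 0.0336). Sfrp2 ran from 0.0355 to 1.08 CPM, highest in replicate 2 of both groups, where the fibroblast markers were also highest (187 CPM summed in positive and 146 CPM in negative replicate 2, against 44.9 to 80.0 CPM in the others).

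Axin2, a scaffold of the beta-catenin destruction complex and a feedback target of the pathway, had 8.19, 8.43 and 9.13 CPM in positive and 8.39, 10.7 and 8.96 CPM in negative libraries. The groups overlapped, and the log2 difference was -0.12 ± 0.11 (paired edgeR adjusted p = 0.489; unpaired 0.671).

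Other genes of the pathway were taken from 7 lists of 65 genes, of which 54 were tested in the carcinoma cells. Some genes, Tcf7 and Rnf43 among them, are in more than 1 list, so the counts per list are not separate results. Unpaired edgeR called 0 of them, with 8 at an unadjusted p under 0.05, against 0.809% and 19.4% of all genes. Unpaired DESeq2 called 5 of the 54, against 8.51% of all genes, and paired edgeR 6 higher and 2 lower, against 10.7% and 7.34% of all genes. With replicates 1 and 3 summed the paired fit called Tnfrsf19 alone (adjusted p = 0.0443), and the adjusted p of the other 7 was 0.0778 to 0.159. Without pair 1 it called only Csnk1e of the 8, and without pair 3 Tnfrsf19 and Tpbg. Their median log2 difference was 0.05 in both edgeR fits. Among 11 tested target and feedback genes 2 were called higher and 1 lower. Cd44, an adhesion receptor and reported WNT target, had 701, 672 and 699 CPM in positive and 528, 533 and 546 CPM in negative libraries, without overlap (0.37 ± 0.05 on the log2 scale, paired edgeR adjusted p = 0.00914). Myc had 265, 121 and 271 CPM in positive and 198, 110 and 196 CPM in negative libraries, low in replicate 2 of both (0.34 ± 0.07, adjusted p = 0.0283). Tnfrsf19 had 0.0632, 0.689 and 0.213 CPM in positive and 0.427, 1.87 and 0.397 CPM in negative libraries, with overlap (-1.5 ± 0.35, paired edgeR adjusted p = 0.0354). Paired DESeq2 gave it no adjusted p.

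In the list of destruction complex and relay genes 2 of 16 were called higher and 0 lower, beside 10.7% of all genes called higher. These were the casein kinase genes Csnk1e, with 56.2, 50.1 and 52.6 CPM in positive and 41.1, 42.3 and 37.3 CPM in negative libraries, and Csnk1g1, with 46.7, 36.4 and 45.6 CPM in positive and 35.9, 31.1 and 34.9 CPM in negative libraries (paired edgeR adjusted p = 0.0145 and 0.0173). Both encode kinases that act on pathway proteins at the membrane. Of 8 tested polarity branch genes Celsr2 and Daam1 were called higher (0.43 and 0.27 on the log2 scale, adjusted p = 0.0349 and 0.0247). Tpbg, a surface protein reported to restrain beta-catenin signalling, was the 1 called of 6 further regulators, at 62.3, 49.6 and 64.1 CPM in positive and 81.9, 61.4 and 73.1 CPM in negative libraries (-0.30 ± 0.06, adjusted p = 0.0206). Of all genes 7.34% were called lower in the same fit. No call was made by edgeR among 11 nuclear factors, 2 secretion genes and 4 further receptors.

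The second comparison was between carcinoma cells and tumor macrophages, in which cell type, sort and table cannot be told apart. All 13 tested ligands and 3 of 4 tested antagonists were called higher in carcinoma cells, while Fzd7 and Lrp6 were called higher in macrophages. The untested Wnt1 (0 CPM in every carcinoma library, against 0.0276 to 0.533 CPM in macrophages) and Wnt2b (at most 0.0355 CPM in any carcinoma library, against 0.118 to 0.437 CPM in macrophages) were low in both. In macrophages 11 of the 48 genes averaged at least 1 CPM, and 37 were below 1 CPM. In 1 fit of all 12 libraries 32 of the 48 genes were tested, and edgeR called 29 higher and 2 lower in carcinoma cells, with Sfrp2 not called (adjusted p = 0.346). This reads against 85.4% of all 16279 genes called (40.6% higher and 44.8% lower). A gene that passed the count filter through carcinoma cells alone was bound to differ, so the count describes the set and no more. Over the 12 libraries the carcinoma-minus-macrophage log2 difference was 7.50 for Wnt7a, 6.98 for Fzd6, 6.86 for Wnt10a and for Wnt3a, 6.17 for Wnt4 and 5.21 for Axin2. Fzd7 was the exception at -1.79 ± 0.11 (edgeR adjusted p = 6.41e-08), with Lrp6 at -0.77 ± 0.08 (adjusted p = 4.68e-06). This fit treated the 12 libraries as independent although same-numbered libraries deviated together, so its SEs and p-values may be too small.

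Some of the genes were lowest in replicate 3 of both macrophage groups, as the keratins were, and others were not. Krt5 stood at 479, 385 and 54.0 CPM in FceRIa-positive libraries 1, 2 and 3, against 714, 611 and 76.9 CPM in FceRIa-negative libraries, which is between 0.208% and 2.76% of its mean in carcinoma cells (a level set across tables normalized separately). Wnt4 had 7.04, 2.97 and 0.442 CPM in positive and 9.60, 4.16 and 0.858 CPM in negative macrophage libraries, or 0.155% to 3.36% of its carcinoma mean. Wnt5a and Wnt10a had 6.77, 3.0 and 0.737 CPM and 2.10, 1.69 and 0.265 CPM in positive libraries, against 7.72, 4.84 and 1.12 CPM and 2.64, 2.86 and 0.296 CPM in negative ones. Replicate 3 was thus lowest for these ligands and for both keratins in each group. Dkk3 (0.501 to 2.51 CPM) and Sostdc1 (0.206 to 1.67 CPM) were also lowest in replicate 3 of both groups. Wnt6 was highest in replicate 3 of the positive group (0.746, 0.819 and 0.854 CPM) but lowest in replicate 3 of the negative group (1.36, 1.0 and 0.829 CPM). Wnt11 was highest in replicate 3 of the negative group (0.427, 0.326 and 0.533 CPM) but lowest in replicate 3 of the positive group (0.166, 0.109 and 0.0884 CPM). The part of keratinocyte RNA in these levels was not tested.

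**Figure D3:**
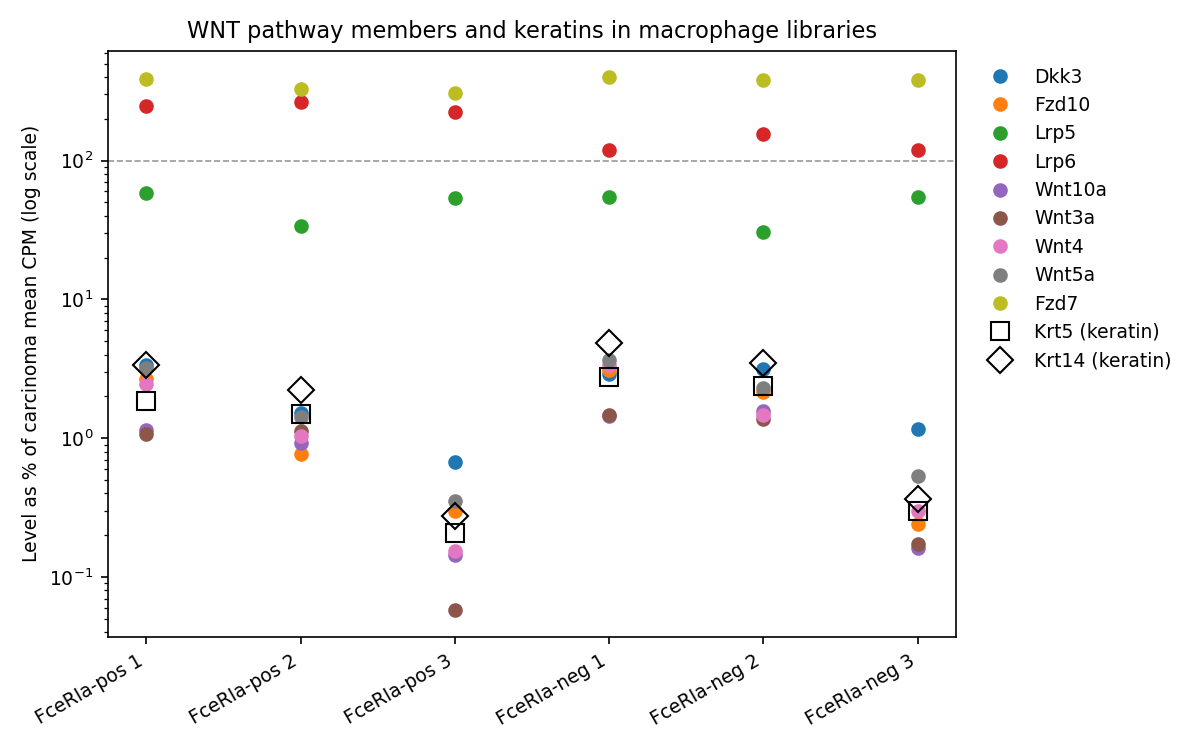
Level in each macrophage library as a percentage of the carcinoma mean CPM, on a log axis, for the genes above 40 CPM in carcinoma cells, for Fzd7, and for the keratins Krt5 and Krt14 (open symbols); the dashed line marks 100%. The ligands, Fzd10 and Dkk3 lie near the keratins at under 5% in every library, whereas Fzd7 lies between 309% and 398%, Lrp6 between 119% and 265% and Lrp5 between 30.6% and 58.8%.

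Fzd10 was likewise lowest in replicate 3, with 1.33, 0.382 and 0.147 CPM in FceRIa-positive and 1.53, 1.07 and 0.118 CPM in FceRIa-negative libraries. Fzd7 and the co-receptor Lrp5 stood otherwise. Fzd7 had 46.2, 38.9 and 36.9 CPM in FceRIa-positive and 47.5, 45.3 and 45.1 CPM in FceRIa-negative libraries, and Lrp5 had 82.9, 47.4 and 76.0 CPM in positive and 77.0, 43.1 and 76.9 CPM in negative libraries. Neither dropped in replicate 3 as the keratins did. Per length, Fzd7 was the highest of the 48 genes in macrophages at 9.56 ± 0.956 CPM per kb. Lrp5 at 6.90 ± 1.77 and Lrp6 at 6.22 ± 2.15 CPM per kb did not differ beyond their spread (SD, n = 6 libraries), and Fzd5 followed at 1.04 ± 0.291.

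The third comparison set FceRIa-positive against FceRIa-negative macrophages. Lrp6 was the clearest difference: it averaged 111 ± 9.02 CPM in FceRIa-positive and 59.3 ± 9.39 CPM in FceRIa-negative macrophages. Fzd1 also rose in the paired fit, and Axin2, Wnt9a, Wnt1 and Wnt11 fell in it at levels below 1 CPM. Unpaired edgeR called 0 of the 24 tested genes (5 at an unadjusted p under 0.05) and 0% of all 14988 genes, of which 15.6% had an unadjusted p under 0.05. Unpaired DESeq2 called 1 of the 24, Lrp6, beside 8.46% of all genes. Paired edgeR called 2 higher and 4 lower, beside 21.0% of all genes (10.8% higher, 10.2% lower), and paired DESeq2 called 2 higher and 0 lower, beside 18.7%. DESeq2 gave Axin2, Fzd2, Fzd8, Wnt1, Wnt7b, Wnt9a, Wnt10b and Wnt11 no adjusted p in either fit, so it could not call them. The paired median log2 difference of the 24 was -0.45, against 0.00 over all genes. Groups did not overlap in 1 gene that was higher and 6 that were lower, against 11.6% and 9.78% of all genes.

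Lrp6, the WNT co-receptor on chromosome 6 (134446476 to 134566965, GRCm38), had 112, 119 and 101 CPM in positive and 54.0, 70.1 and 53.7 CPM in negative libraries. The lowest positive library was well above the highest negative one. The log2 difference was 0.91 ± 0.08 in the paired fit (edgeR adjusted p = 0.000386), and it held without each pair (highest adjusted p = 0.0143). Without pairing it was 0.90 ± 0.14 (edgeR adjusted p = 0.0585; DESeq2 3.19e-06). The other co-receptor, Lrp5, was not called (0.07 ± 0.07, paired edgeR adjusted p = 0.508). The macrophage markers rose too: 9 of 10 were called higher in the paired fit, summing to 29172 to 31871 CPM in positive and 15598 to 19868 CPM in negative libraries. Of 9 basal keratinocyte markers, which summed to 1246 to 2768 CPM in positive and 2779 to 4219 CPM in negative libraries, 7 were called lower. Among the 7, Krt5, Krt14, Trp63, Itgb4 and Col17a1 were lowest in replicate 3, whereas Cdh1 and Epcam were highest there, Cdh1 with 217, 140 and 306 CPM in positive and 846, 547 and 1455 CPM in negative libraries, up to 562% of its carcinoma mean. Itga6 and Itgb1 were not called. Langerhans and dendritic cell markers were called lower in 5 of 6 (15.1 to 45.3 CPM summed in positive, 90.5 to 300 CPM in negative libraries). The part of these shifts in the WNT results was not tested.

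Of the 7 Frizzled genes tested 1 was called higher and 0 lower with pairing, beside 10.8% and 10.2% of all genes. Fzd1 had 4.36, 1.47 and 2.0 CPM in positive and 1.76, 1.19 and 0.503 CPM in negative libraries. The groups overlapped, with the positive library higher in each number (1.15 ± 0.31, paired edgeR adjusted p = 0.0333; unpaired 0.414). Without pair 1 it was not called (adjusted p = 0.243). Fibroblast markers summed to 256, 87.3 and 98.9 CPM in positive and 141, 119 and 142 CPM in negative libraries. Their part in the Fzd1 value was not tested. Fzd4 had 2.35, 1.5 and 1.80 CPM in positive and 2.49, 2.74 and 2.72 CPM in negative libraries, without overlap and not called (paired adjusted p = 0.143). Fzd5 had 9.89, 4.89 and 8.04 CPM in positive and 6.51, 5.16 and 8.70 CPM in negative libraries, and Fzd7 was not called either (paired adjusted p = 0.136). Lgr4 had 1.88, 2.32 and 2.15 CPM in positive and 2.36, 3.02 and 2.40 CPM in negative libraries, the one LGR gene tested and not called (paired adjusted p = 0.31).

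The 4 genes that fell rested on few reads. Axin2 had 8, 4 and 1 reads in positive and 19, 29 and 13 reads in negative libraries, with no overlap (-2.08 ± 0.51 on the log2 scale, paired edgeR adjusted p = 0.0231; unpaired 0.172). Wnt9a had 8, 5 and 0 reads in positive and 25, 39 and 13 reads in negative libraries (-2.43 ± 0.56, adjusted p = 0.0179; unpaired 0.226). The negative libraries were above all positive ones for both genes. Wnt1 had 1, 6 and 5 reads in positive and 11, 17 and 18 reads in negative libraries (-1.82 ± 0.48, adjusted p = 0.0319; unpaired 0.217), and Wnt11 had 6, 4 and 3 reads in positive and 17, 14 and 18 reads in negative libraries (-1.77 ± 0.45, adjusted p = 0.0268; unpaired 0.103). DESeq2 gave these 4 genes no adjusted p in either fit. Each of the 4 was lost without at least 1 pair: Axin2 without pair 2 (adjusted p = 0.0844), Wnt9a without pair 1 (0.0535), and Wnt1 and Wnt11 without pair 1 or pair 3 (highest 0.113 and 0.101). Wnt1, a canonical ligand of the developing brain, had no read in any carcinoma library, where the limit for 0 counts is at most 0.107 CPM. The other 7 ligands tested were not called. Among them Wnt4 came nearest to the threshold (-0.54 ± 0.17, paired edgeR adjusted p = 0.0623), and Wnt6 had 0.746, 0.819 and 0.854 CPM in positive and 1.36, 1.0 and 0.829 CPM in negative libraries.

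**Figure D4:**
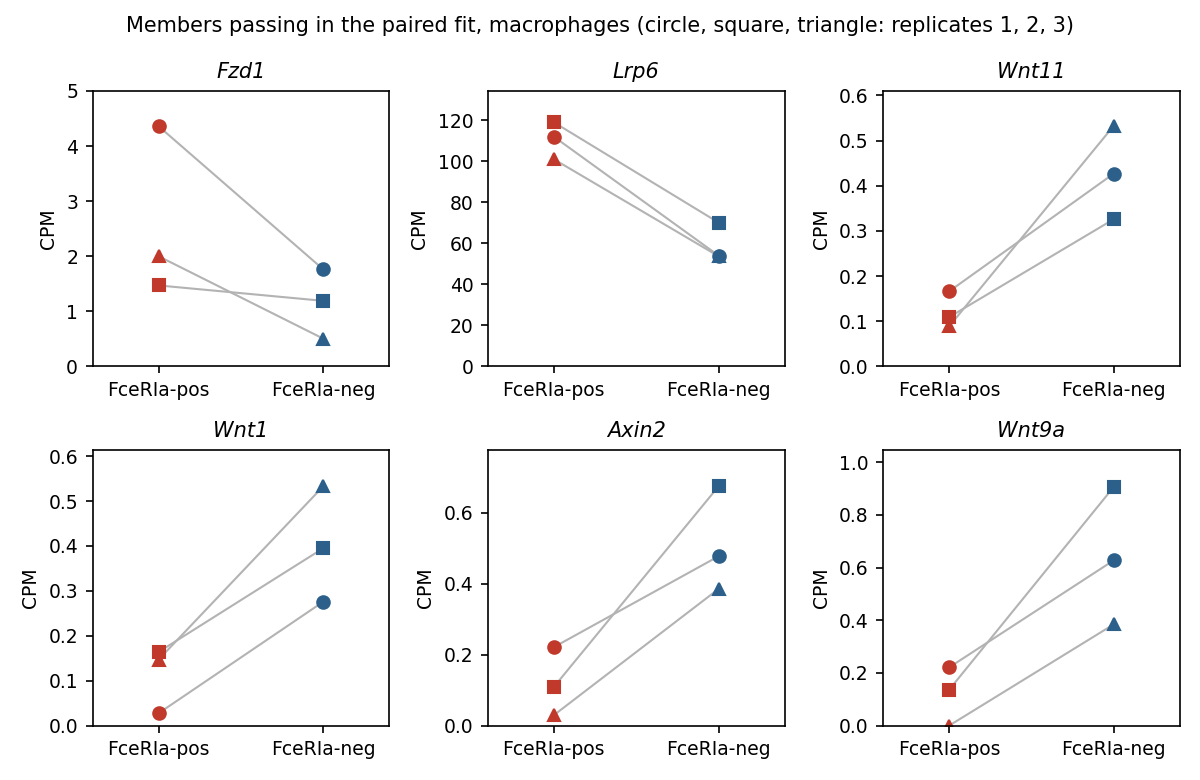
CPM of the 6 genes with an adjusted p under 0.05 in the paired edgeR fit of macrophages, FceRIa-positive libraries at left and FceRIa-negative at right, with a line joining libraries of one replicate number (linear axes from 0, a scale for each gene). Lrp6 lies at 101 to 119 CPM at left and 53.7 to 70.1 CPM at right, while the 4 genes that fell stay below 1 CPM in every library.

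In the pathway lists 53 of the 65 genes were tested in macrophages. Unpaired edgeR called 0, with 13 at an unadjusted p under 0.05, against 0% and 15.6% of all genes. Unpaired DESeq2 called 8 of the 53, against 8.46% of all genes, and paired edgeR 7 higher and 7 lower, against 10.8% and 10.2% of all genes, with a median log2 difference of 0.00. Among the higher ones, Wls, which carries WNT proteins to the surface for secretion, had 135, 118 and 123 CPM in positive and 90.3, 94.8 and 64.6 CPM in negative libraries. Ctnnb1, which encodes beta-catenin, had 599, 519 and 620 CPM in positive and 438, 398 and 454 CPM in negative libraries. Neither gene's groups overlapped (Wls 0.61 ± 0.11, paired edgeR adjusted p = 0.00731; Ctnnb1 0.43 ± 0.08, adjusted p = 0.00875). Ctnnb1 was among 4 of 16 destruction complex and relay genes called higher, with 0 lower, against 10.8% of all genes called higher. The other 3 were Apc, Gsk3b and Tnks2, and paired DESeq2 called 4 of the 16 higher and 1 lower. Without pair 1 the paired edgeR fit called neither Wls (adjusted p = 0.0778) nor any of these 4 (Ctnnb1 0.0615), and without pair 2 it called neither Ctnnb1 (0.0537) nor Tnks2 (0.146).

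Of 9 tested target and feedback genes 3 were called lower and 1 higher, beside 10.2% and 10.8% of all genes. Ccnd1, which encodes cyclin D1, had 26.2, 48.8 and 39.6 CPM in positive and 48.8, 74.6 and 77.2 CPM in negative libraries, below its pair in each number (-0.82 ± 0.09, paired edgeR adjusted p = 0.000684). Rnf43, a ligase that removes Frizzled receptors, had 1.49, 1.64 and 1.15 CPM in positive and 2.89, 3.63 and 5.24 CPM in negative libraries (-1.42 ± 0.26, adjusted p = 0.00723). Tcf7, a nuclear partner of beta-catenin that T cells also express, had 0.276, 0.0819 and 0.354 CPM in positive and 1.58, 0.442 and 1.51 CPM in negative libraries (-2.31 ± 0.32, adjusted p = 0.00217). The T cell gene Cd3g had the same order in the negative libraries, at 0.276, 0.246 and 1.06 CPM in positive and 15.8, 0.674 and 14.8 CPM in negative libraries, and 4 of 5 tested T cell markers were called lower. The fifth, Cd4, was called higher, at 122, 168 and 133 CPM in positive and 49.5, 68.1 and 35.0 CPM in negative libraries, so that the 8 T cell markers summed to 125 to 170 CPM in positive and 72.9 to 81.5 CPM in negative libraries. The part of T cells in the Tcf7 value was not tested. Ascl2, a transcription factor and WNT target of intestinal stem cells, rose at low level, with 1.1, 0.573 and 0.501 CPM in positive and 0.101, 0.0930 and 0.0592 CPM in negative libraries (3.03 ± 0.42, adjusted p = 0.00207).

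Kremen2, a receptor for Dickkopf proteins, had 0.138, 0.136 and 0 CPM in positive and 1.46, 2.30 and 3.91 CPM in negative libraries (-4.64 ± 0.58, paired edgeR adjusted p = 0.00136). Pygo2, a co-factor of beta-catenin, had 65.2, 68.4 and 72.6 CPM in positive and 96.2, 84.4 and 108 CPM in negative libraries (-0.48 ± 0.08, adjusted p = 0.00489; 0.0525 without pair 1). In both genes every positive library was below every negative one. With Tcf7 and Ctnnbip1, Pygo2 made up the 3 of 11 nuclear factors that fell, beside 10.2% of all genes. Ctnnbip1 was not called without pair 1 (paired edgeR adjusted p = 0.0669).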

How the data were processed

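Per the labels' protocols, Trizol was used on the sorted cells and TruSeq v2 libraries were built with 100 ng RNA. The authors deposited raw counts, 1 per gene and library. The submitters' processing notes name STAR, FastQC and mm10 (GRCm38), with no versions. How reads were counted, on which strand and over which annotation was not stated, so reads of overlapping genes cannot be told apart. By GENCODE M21 positions 15 of the 48 genes overlap another gene, among them Axin2, Wnt5a, Wnt7b, Wnt6, Wnt11, Fzd3, Fzd5 and Fzd6. There were 4 count columns that belong to no sample here, and these were not used. The genes, gene lists and tests were chosen with earlier results of these data known.

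The quasi-likelihood test of edgeR 4.0.16 (R 4.3.3) was run on these counts after filterByExpr and TMM scaling, with a threshold of 0.05 on Benjamini-Hochberg p-values adjusted over every tested gene, on the 6 libraries of each table and, for carcinoma cells against macrophages, on all 12. The filter left 13604, 14988 and 16279 genes, with 99.9% of counts. The SE is the log2 difference divided by the square root of F. CPM use normalized library sizes, and CPM per kb the joined exon length in GENCODE M21. Genes that passed in edgeR with or without the block, or averaged at least 1 CPM in a group, were named. Except for Fzd3 and Fzd8, given by range, their values were given library by library in at least 1 cell type. The others were given by range or within a count. Of the list genes, at most 8 per comparison with the smallest p were named, and Apc, Gsk3b, Tnks2 and Ctnnbip1 besides, to complete a count.

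The replicate number was added as a block (the paired fit) because same-numbered libraries deviated together: the correlation of their deviations was 0.554, 0.733 and 0.56 for carcinoma pairs 1, 2 and 3, and 0.729, 0.831 and 0.762 for macrophage pairs. Carcinoma numbers 1 and 3 were not separable (0.571 for negative 1 with positive 3). Residual degrees of freedom were 4 unpaired and 2 paired. Alternatives were DESeq2 1.42.0, other scaling factors and filters, and leaving out each library or pair; paired DESeq2 and summed carcinoma replicates were added after seeing the data.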

Additional observations from a re-analysis of the deposited data

How the results depend on the processing

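Beside the 1 WNT gene called between reporter-positive and reporter-negative carcinoma cells, DESeq2 called 5, upper-quartile factors 2, a filter of 1 CPM in 3 libraries 2, and leaving out 1 library 0 to 3. The replicate block called 10, with DESeq2 9, and 10, 20 and 8 without pair 1, 2 and 3; summed replicates 1 and 3 gave 0, and 6 with the block. In macrophages, against 0, DESeq2 called 1, no count filter 1, the block 6, with DESeq2 2, and 3, 5 and 4 without pair 1, 2 and 3; leaving out 1 library gave 0. The 31 of carcinoma cells against macrophages moved between 29 and 33; no block could be fitted there. Of the other pathway genes, against 0 in carcinoma cells, DESeq2 called 5, the 1 CPM filter 1, leaving out 1 library 0 to 3, the block 8, with DESeq2 7, and 1, 22 and 2 without pair 1, 2 and 3, with 0 from summed replicates and 1 with the block. In macrophages, against 0, DESeq2 called 8, no filter 3, the block 14, with DESeq2 15, and 8, 13 and 18 without pair 1, 2 and 3; leaving out 1 library gave 0. Shares of all genes were tallied only for edgeR and DESeq2 with and without the block, as given above. Counts under the other settings have no such share beside them, so they are not results about the WNT genes. The cause of these shifts was not tested. No log2 difference of a named gene changed sign with a call. Genes under 1 CPM, 37 of 48 in macrophages, are limited by depth.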
